A study of Mus musculus with 5 samples.

Results

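The clustered histone genes are the 67 protein-coding genes of the deposited count table whose symbol in GENCODE M21 (GRCm38) begins with Hist1h, Hist2h, Hist3h or Hist4h, out of 55421 genes listed there. Membership follows name and biotype alone, but this set was proposed with earlier results of these data known. The Hist1 cluster on chromosome 13 holds 54 of them, Hist2 on chromosome 3 holds 10, Hist3 on chromosome 11 holds 2 and Hist4 on chromosome 6 holds 1. By product, 6 encode the linker histone H1, 18 encode H2A, 18 encode H2B, 12 encode H3 and 13 encode H4. They were measured by bulk RNA-seq of whole mouse cerebella taken at postnatal day 14, from rRNA-depleted total RNA with paired reads of 150 bp. The 3 Yy1 cKO libraries came from Pcp2 Cre/+; Yy1 fx/fx mice and the 2 control libraries from Pcp2 Cre/+; Yy1 fx/+ littermates, so every animal carried Pcp2-Cre and at least 1 floxed copy of Yy1. Pcp2-Cre acts in Purkinje cells, while the RNA came from all cells of the cerebellum. The labels call the animals mixed in sex and do not tie replicates to litters, and p-values here reflect the spread of these 5 samples alone, which may be technical.

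Histones H2A, H2B, H3 and H4 form the protein core that DNA wraps around in a nucleosome, and H1 binds the linker DNA between nucleosomes. Most clustered histone genes are replication-dependent: they are transcribed mainly in S phase, when new DNA has to be packed, and their mRNAs end in a stem-loop bound by SLBP instead of a poly(A) tail. Such mRNAs are poorly captured by poly(A) selection but are retained by rRNA depletion. In the young cerebellum the main dividing cells are the granule cell precursors of the external granular layer. YY1, the product of the deleted gene, is a widely expressed zinc finger protein that binds DNA and regulates transcription.

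The mRNAs of these genes share their ending, shown here because it is the feature that sets the family apart and because it differs between H4 and the other types. Among GENCODE M21 transcripts, 41 members hold the 16-base stem-loop (searched as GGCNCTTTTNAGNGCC) in the annotated 3′ UTR, beginning 21 to 58 bases past the stop codon (median 31). Of the 46 members with an annotated 3′ UTR of at least 60 bases, 39 hold it, and 15 members have no annotated 3′ UTR. Only 47 of 55450 genes (0.08%) hold these letters anywhere in a transcript, and 42 of those 47 are members. In the following sequences, each with 5 flanking bases on either side, the capitals mark positions 4 and 13 of the stem-loop, which face each other in the stem.
Hist1h3c: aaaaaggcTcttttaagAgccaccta
Hist1h2ab: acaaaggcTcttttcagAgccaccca
Hist1h2bh: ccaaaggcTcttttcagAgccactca
Hist1h1c: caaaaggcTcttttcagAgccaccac
Hist2h2ac: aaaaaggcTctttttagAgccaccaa
Hist1h4f: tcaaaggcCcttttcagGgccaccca
Hist1h4d: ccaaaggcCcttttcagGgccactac
Hist2h4: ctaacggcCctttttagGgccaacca
They lie, in GRCm38, at chr13:23745042-23745067 (minus strand) for Hist1h3c, chr13:23751567-23751592 (plus) for Hist1h2ab, chr13:23542923-23542948 (minus) for Hist1h2bh and chr13:23739507-23739532 (plus) for Hist1h1c. Those of Hist2h2ac and Hist2h4 lie at chr3:96220413-96220438 and chr3:96262934-96262959 (both minus), and those of Hist1h4f and Hist1h4d at chr13:23551286-23551311 (minus) and chr13:23581945-23581970 (plus). Counting from 1 at the 5′ end of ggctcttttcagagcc, the form held by 25 members, the H4 genes carried T4C and A13G, a change of the base pair as a whole. All 9 H4 members with a stem-loop had the C at position 4, and all 32 members of the other types had the T. In the loop, 6 members carried C10A, Hist2h2ac carried C10T, and 2 H4 members carried C10T beside T4C and A13G.

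The libraries held 17424860 to 20305705 counts in total. Levels are CPM, counts per 1000000 on TMM-scaled library sizes. Yy1 itself had 73.7 to 74.6 CPM in control and 73.4 to 81.7 CPM in Yy1 cKO, with a log2 fold change of 0.05 ± 0.065 (SE). Whole-tissue counts over the whole gene include the cells without Cre, so this value is a weak check of the labels. The first principal component (59.3% of the variance) separated the groups, and Yy1 cKO 3 lay apart from the other libraries on the second (18.5%). Of 20388 genes tested, 12.6% were called lower and 10.7% higher in Yy1 cKO at an adjusted p under 0.05 by the quasi-likelihood test of edgeR with Benjamini-Hochberg adjustment, which is 2577 and 2185 genes. Scaling by library size alone gave 3369 and 1432.

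Clustered histone mRNAs were lower in the Yy1 cKO cerebella. Summed over all 67 genes they stood at 2127 and 1912 CPM in control against 1098, 1196 and 925.2 CPM in Yy1 cKO. No Yy1 cKO library reached a control, and the mean in Yy1 cKO was 53.1% of that in control. Of 62 members tested, 49 were called lower, beside 12.6% of all genes tested, and 0 higher, beside 10.7%. At an unadjusted p under 0.05, 0 members were higher by the edgeR test, and DESeq2 and limma-voom also called 0 higher. At least 2-fold lower were 40 of the 62, beside 4.29% of all genes, and at least 4-fold lower were 31, beside 1.44%. In 55 of the 62, all Yy1 cKO libraries lay below both controls, which held for 27% of all genes tested. The other 7 overlapped between the groups, and 0 lay wholly above, beside 25.2% of all genes. The median log2 fold change was -2.02, with a range of -5.27 to 0.34, while the median over all genes tested was -0.001. In bulk tissue, fewer cells of a type and less RNA per cell cannot be told apart.

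The types did not fall by the same amount. H3 mRNAs summed to 414.5 and 333.1 CPM in control against 99.8, 107.0 and 77.2 CPM in Yy1 cKO, which left 25.3% of the control mean. H2B kept 37.5% (329.1 and 275.8 against 115.5, 129.7 and 94.9 CPM), and H2A kept 44.3% (402.6 and 339.3 against 169.1, 184.4 and 139.7 CPM). H1 kept 53.4% (227.8 and 217.4 against 134.2, 128.5 and 94.0 CPM). H4 kept 77.6% (752.6 and 746.8 against 579.8, 646.0 and 519.4 CPM). The groups did not overlap in any of these 5 sums. As a share of all clustered histone reads, H4 was 35.4% and 39.1% in control against 52.8%, 54.0% and 56.1% in Yy1 cKO, while H3 went from 19.5% and 17.4% to 9.1%, 8.9% and 8.3%. These sums include all members, also near-identical copies such as Hist1h2bq and Hist1h2br, whose counts differed by at most 5. Reads counted for both copies would enter the sums and shares more than once, and how such reads were counted is not given. The difference between types was not tested, since genes of a type share sequence and are not replicates. H3 was lowest in the sums over all clusters and in those of Hist2 (32.0% of control), but not in those of Hist1. Within Hist1, H2A kept 12.5% of control and H3 kept 23.7%. Over the tested genes of all clusters, the median log2 fold change was -2.77 for H2A and -2.41 for H3. The order of H1, H2A and H2B depended on the members summed. Over members sharing under 10% of their 150-base stretches with other genes, the log2 ratio of the sums was -1.27 for H2A, -1.19 for H1 and -0.665 for H2B, against -1.17, -0.905 and -1.415 over all members, and no tested H3 gene belongs to that set.

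**Figure D1:**
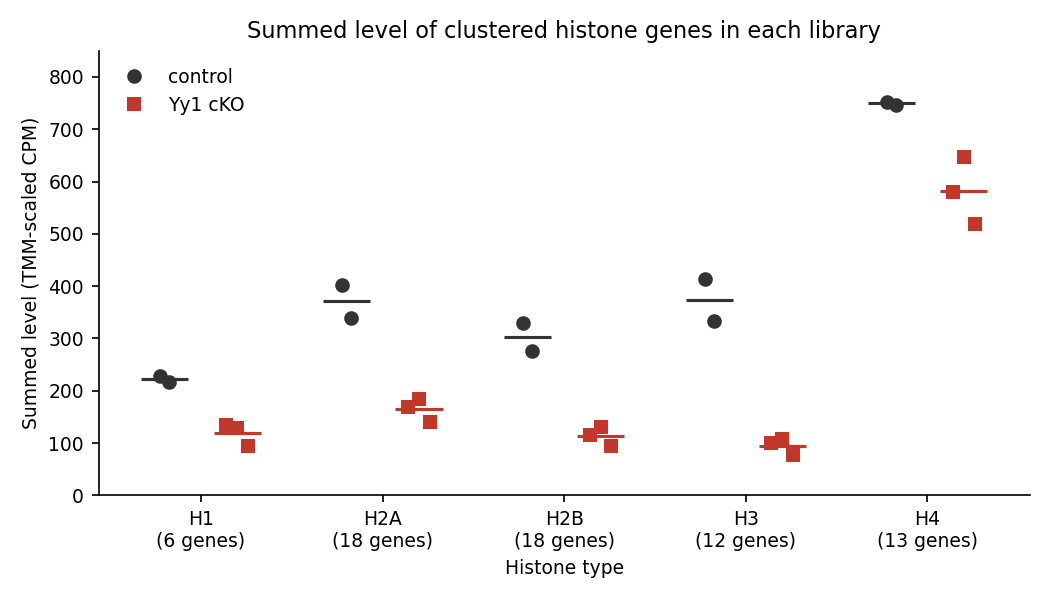
Summed level of each histone type (TMM-scaled CPM, axis from 0) in each of the 2 control (circles) and 3 Yy1 cKO (squares) libraries, with a line at each group mean. Summed over all clusters, H3 shows the lowest share of the control mean (25.3%) and H4 the highest (77.6%). In all 5 types the squares lie below the circles.

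H3 genes were lower without exception among those tested. All 11 were called, each at least 2-fold and 7 of them at least 4-fold, with a median log2 fold change of -2.41 and adjusted p of at most 0.00113. Hist1h3c had the lowest fold change of any member. It had 518 and 337 counts in control against 15, 13 and 6 in Yy1 cKO, a log2 fold change of -5.27 ± 0.28 (SE, adjusted p = 1.3e-05). Hist1h3g followed, with 235 and 209 counts in control against 24, 22 and 15 in Yy1 cKO (-3.49 ± 0.19). A further 5 H3 genes of Hist1 fell to between 13.4% and 26.0% of control. Hist1h3b had 898 and 655 counts against 132, 118 and 73, Hist1h3d had 871 and 636 against 152, 157 and 102, and Hist1h3h had 783 and 574 against 124, 145 and 107. Hist1h3i had 759 and 593 counts against 214, 206 and 126, and Hist1h3a had 330 and 253 against 67, 63 and 53. These 5 had log2 fold changes between -2.90 and -1.94. A smaller change was seen in Hist1h3f, with 890 and 819 counts against 356, 375 and 321 (-1.33 ± 0.09), and in Hist1h3e, with 922 and 747 against 392, 389 and 288 (-1.28 ± 0.14).

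H3 was the one core histone whose Hist2 genes also fell by more than 2-fold. Hist2h3c2 had 842 and 605 counts in control against 173, 146 and 104 in Yy1 cKO (-2.41 ± 0.20), and Hist2h3b had 667 and 545 against 333, 321 and 243 (-1.07 ± 0.14). Hist2h3b was the H3 gene with the smallest fall, and all of its exon bases lie under the antisense gene Gm20628, so the values of the pair may be mixed if counting ignored strand. The 12 H3 genes encode 2 proteins that are 99.3% identical. The tested genes of the 8-gene protein group had a median log2 fold change of -2.41, and those of the other group (Hist1h3a, Hist1h3g, Hist1h3h and Hist1h3i) one of -2.39.

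H2A split by cluster. All 12 tested H2A genes of Hist1 were called at least 4-fold lower, with log2 fold changes of -4.04 to -2.28 and adjusted p of at most 0.000321, whereas 0 of the 4 tested in Hist2 and Hist3 were called in either direction by edgeR (at an unadjusted p under 0.05, Hist2h2aa2 alone was lower). Summed, Hist1 H2A mRNAs stood at 235.4 and 181.9 CPM in control against 28.8, 27.8 and 21.9 CPM in Yy1 cKO, or 12.5% of control. Those of Hist2 stood at 157.3 and 149.2 against 132.2, 145.8 and 110.3 CPM, or 84.5%. The lowest H2A fold change was that of Hist1h2af, which had 205 and 179 counts in control against 20, 13 and 3 in Yy1 cKO (-4.04 ± 0.38). Hist1h2ab, the H2A gene of Hist1 with the most reads, had 573 and 412 counts against 53, 47 and 50 (-3.34 ± 0.15, adjusted p = 1e-06). Its controls differed more from each other than its Yy1 cKO libraries did.

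Other Hist1 H2A genes followed the same course. Hist1h2ag had 350 and 279 counts in control against 35, 39 and 28 in Yy1 cKO, Hist1h2ah had 389 and 300 against 56, 41 and 38, and Hist1h2ae had 329 and 257 against 41, 52 and 35. Hist1h2ad had 431 and 327 counts against 72, 50 and 56, and Hist1h2ai had 387 and 292 against 67, 48 and 49. Hist1h2ac had 302 and 230 counts against 56, 43 and 42, and Hist1h2ak had 307 and 260 against 69, 72 and 40. Hist1h2an, with a mean under 5 CPM, stood at -3.08 ± 0.30. In each of the other 7 the lowest control had over 3 times the counts of the highest Yy1 cKO library. Hist1h2ak shares no exact 150-base stretch with another gene, and its log2 fold change was -2.28 ± 0.21. The H2A genes outside Hist1 kept their level or nearly so. Hist2h2aa2, with 2523 and 2203 counts in control against 2143, 2105 and 1677 in Yy1 cKO, lay lower in all Yy1 cKO libraries (-0.31 ± 0.10) but missed the threshold (adjusted p = 0.0688). It was called lower when scaled by library size alone, without a filter and without Yy1 cKO 2 or Yy1 cKO 3 (adjusted p = 6.88e-05 to 0.0346). The replicate block also called it, but is not a separate check from leaving out Yy1 cKO 3. That library has no control of its number, so the block compares the groups without it. Hist2h2ac had a log2 fold change of -0.17 ± 0.18 and Hist3h2a one of -0.04 ± 0.17, and both overlapped between the groups. Hist2h2ab had the highest fold change of all members, 0.34 ± 0.18, from 171 and 186 counts in control against 238, 278 and 185 in Yy1 cKO (adjusted p = 0.21). Yy1 cKO 3 lay inside the range of the controls for Hist2h2ab, and without that library the gene was called higher at 0.47. The replicate block, nearly the same fit, gave the same call and value.

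**Figure D2:**
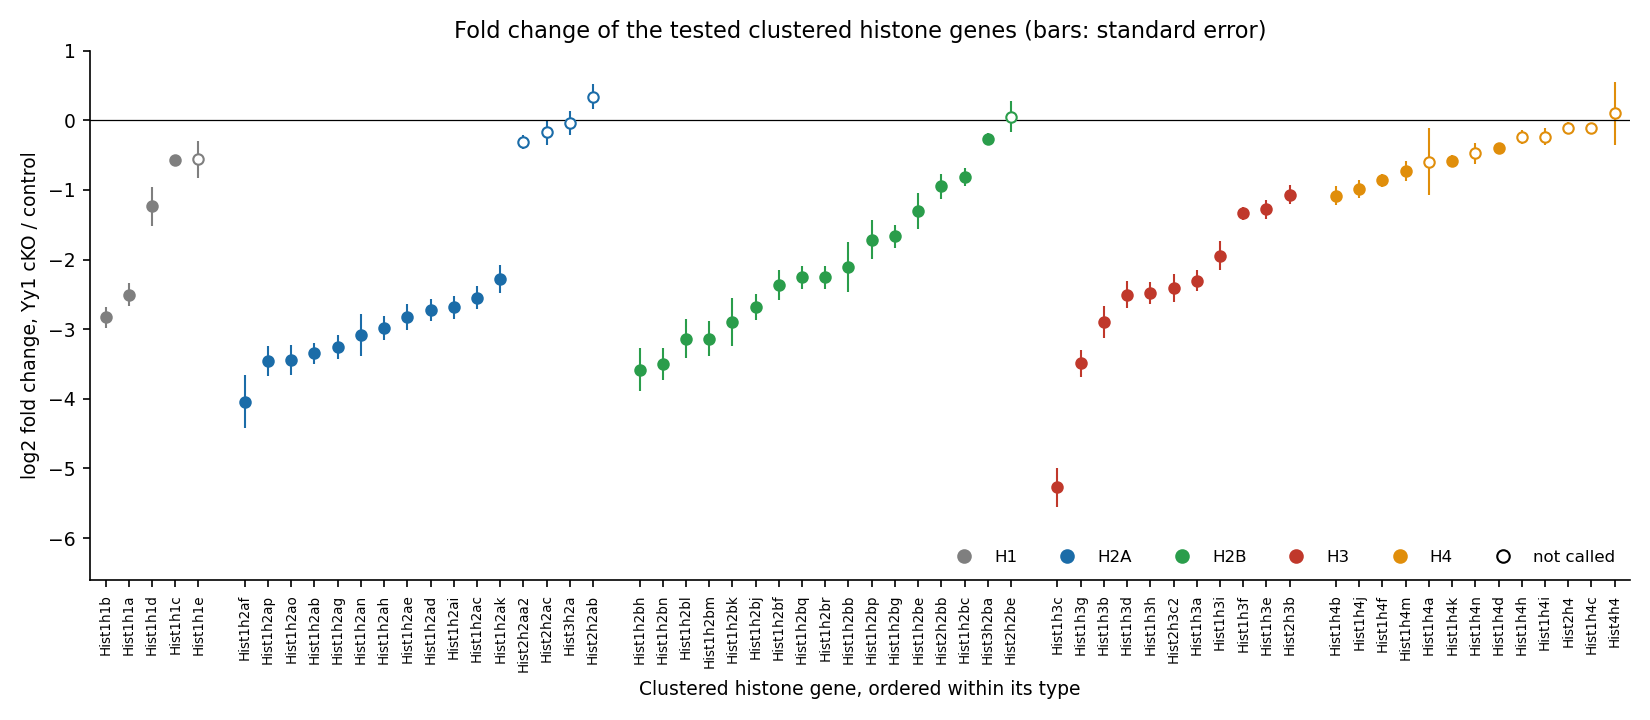
log2 fold change (Yy1 cKO over control) of the 62 tested members, ordered within each type, with bars for the standard error and open points where the adjusted p was 0.05 or more. The 4 open H2A points near 0 are the Hist2 and Hist3 genes, Hist1h3c is lowest at -5.27, and the H4 points lie between -1.08 and 0.10.

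H2B genes ranged from a log2 fold change of -3.58 to one of 0.05. Of 17 tested, 16 were called lower, 10 of them at least 4-fold, with a median log2 fold change of -2.25. Hist1h2bh was lowest, with 123 and 133 counts in control against 16, 12 and 5 in Yy1 cKO (-3.58 ± 0.31). Hist1h2bn had 371 and 268 counts against 21, 38 and 28 (-3.50 ± 0.23), and Hist1h2bk had 383 and 219 against 50, 51 and 24 (-2.89 ± 0.34). Hist1h2bj had 211 and 165 counts against 35, 30 and 26, and Hist1h2bb had 237 and 193 against 60, 71 and 24. For Hist1h2bk and Hist1h2bb the fewest counts were in Yy1 cKO 3. A milder fall was seen in Hist1h2bg, with 556 and 474 counts against 201, 178 and 125 (-1.67 ± 0.16), and in Hist1h2be, with 315 and 275 against 136, 158 and 77 (-1.30 ± 0.27). Hist1h2be shares 496 exon bases, 11.2% of its own, with Hist1h1e on the same strand. Hist1h2bc had 632 and 587 counts in control against 377, 402 and 298 in Yy1 cKO, the smallest fall of a Hist1 H2B gene (-0.81 ± 0.13). Its divergent neighbour Hist1h2ac fell by 2.55 on the same scale.

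Of the 3 tested H2B genes outside Hist1, none fell by 2-fold. Hist2h2bb had 342 and 248 counts against 145, 187 and 141 (-0.95 ± 0.18), with all of its exon bases under the antisense gene Gm20628 and 59.3% under the same-strand gene Gm42743. Hist3h2ba had 899 and 786 counts in control against 731, 760 and 688 in Yy1 cKO (-0.26 ± 0.083, adjusted p = 0.0478). That call was lost with DESeq2, with limma-voom and under several other alternatives. Hist2h2be was the H2B gene with the highest fold change, 0.05 ± 0.22, from 97 and 78 counts against 110, 105 and 67, and its groups overlapped. The 4 called H2B genes not named here with counts (Hist1h2bl, Hist1h2bm, Hist1h2bf and Hist1h2bp) had mean levels under 5 CPM and log2 fold changes of -3.14 to -1.71.

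Linker histone genes separated into a low pair and 3 that fell less. Hist1h1b had 465 and 339 counts in control against 62, 53 and 60 in Yy1 cKO (-2.83 ± 0.15), and Hist1h1a had 496 and 356 against 94, 74 and 65 (-2.50 ± 0.17). Hist1h1c, a broadly expressed subtype, had 1049 and 965 counts against 772, 661 and 675 (-0.57 ± 0.069, adjusted p = 0.000362). Hist1h1d had 637 and 559 counts against 320, 306 and 163 (-1.24 ± 0.28, adjusted p = 0.0331), and its call was lost without control 1, control 2 or Yy1 cKO 1 (adjusted p = 0.142, 0.126 and 0.0654). Hist1h1e, also broadly expressed, had 1592 and 1679 counts in control against 1418, 1252 and 787 in Yy1 cKO. It lay lower in all Yy1 cKO libraries but was not called (-0.56 ± 0.26, adjusted p = 0.23). Of its exon bases, 25.7% overlap Hist1h2be on the same strand. Yy1 cKO 3 was far below the other Yy1 cKO libraries for Hist1h1d and Hist1h1e, and without it Hist1h1e was called at -0.36. The replicate block, nearly the same fit, gave the same call and value. The testis H1 gene, Hist1h1t, had 1 count in all 5 libraries together.

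H4 genes held closest to control. All 13 were tested, 6 were called lower, 1 of them at least 2-fold and 0 at least 4-fold, and the median log2 fold change was -0.47. Their products are 1 and the same protein, from 12 distinct coding sequences of at least 85.4% identity. Hist1h4b was lowest, with 657 and 558 counts in control against 292, 341 and 257 in Yy1 cKO (-1.08 ± 0.13), and 56.2% of its exon bases lie under the antisense gene 4930558J22Rik. Hist1h4j had 427 and 399 counts against 233, 239 and 175 (-0.99 ± 0.13). Hist1h4f had 485 and 487 counts against 287, 266 and 278 (-0.86 ± 0.091), with little spread in either group, and it shares 1.2% of its 150-base stretches with another gene.

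Of the remaining called H4 genes, Hist1h4m had 840 and 930 counts against 574, 440 and 645 (-0.73 ± 0.15), and Hist1h4k had 1026 and 919 against 717, 693 and 611 (-0.58 ± 0.081). Hist1h4d, among the members with the most reads, had 2511 and 2533 counts in control against 2229, 1962 and 1746 in Yy1 cKO (-0.40 ± 0.077, adjusted p = 0.00484), and shares no such stretch. The calls of Hist1h4m and Hist1h4d were lost without control 2 (adjusted p = 0.0835 and 0.0674). Hist4h4, the lone gene of its cluster, had the highest H4 fold change, 0.10 ± 0.45, from 547 and 602 counts against 497, 955 and 446, and Yy1 cKO 2 alone lay above the controls. Among the 6 other H4 genes not called (Hist1h4a, Hist1h4n, Hist1h4h, Hist1h4i, Hist2h4 and Hist1h4c), log2 fold changes ran from -0.59 to -0.10. Of these, Hist1h4n was called lower under 6 alternatives, among them DESeq2 (adjusted p = 0.0203) and limma-voom (0.0395). Hist1h4h was called lower under 4, at adjusted p of 0.00349 to 0.049. Hist1h4a was called lower under the replicate block alone (0.0192), which compares the groups without Yy1 cKO 3. Hist1h4a had 174 counts in Yy1 cKO 3 beside 439 and 478 in the other Yy1 cKO libraries and 566 and 492 in the controls.

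Because most of these mRNAs are short and of unequal annotated length, levels were compared between genes per kilobase of annotated exon. On that scale the highest control means were those of Hist1h4h, 284.5 CPM per kb, and Hist2h2aa2, 244.7 CPM per kb, with 241.1 and 197.7 CPM per kb in Yy1 cKO. Hist1h3c went from 37.0 to 0.946 CPM per kb, and Hist1h2ab from 56.8 to 5.59 CPM per kb. The 2 genes with the highest level per length thus kept most of it, and their log2 fold changes were -0.24 and -0.31.

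**Figure D3:**
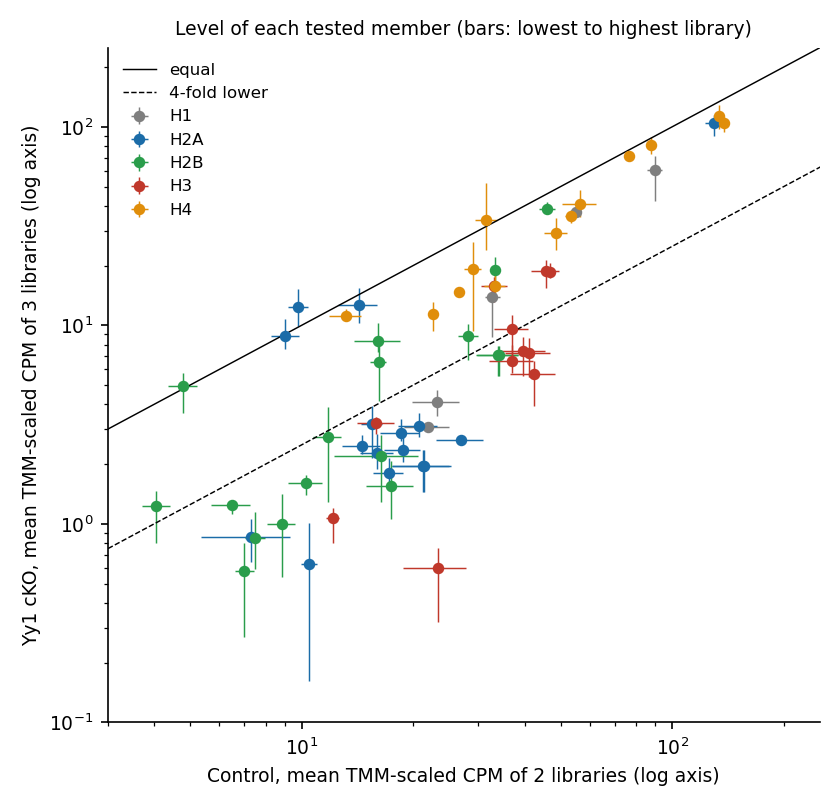
Mean level of each tested member in control (x) against Yy1 cKO (y), in TMM-scaled CPM on log axes, with bars from the lowest to the highest library and lines at equality and at a 4-fold lower level. The genes above 100 CPM in control, 2 of H4 and 1 of H2A, lie near equality, while 31 members lie at or below the 4-fold line by their fitted fold change.

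Low values were spread along the whole Hist1 cluster. The 54 genes of Hist1 lie in 4 blocks separated by gaps of over 100 kb, of which the last, with Hist1h2ba and Hist1h2aa, was at or near 0 in every library. In the first block 17 of 18 tested genes were called lower, with a median log2 fold change of -2.38. The second block had 4 of 5 called, with a median of -2.89, and the third had 24 of 28, with a median of -1.89. Neighbours differed by type within each block. Hist1h4i, at -0.23 ± 0.13, lies between Hist1h2bk at -2.89 and Hist1h2ag at -3.25, and Hist1h4d, at -0.40 ± 0.077, lies between Hist1h3d at -2.51 and Hist1h2be at -1.30. Over the clusters, 45 of 51 tested genes were called lower in Hist1, 3 of 8 in Hist2, 1 of 2 in Hist3 and 0 of 1 in Hist4.

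**Figure D4:**
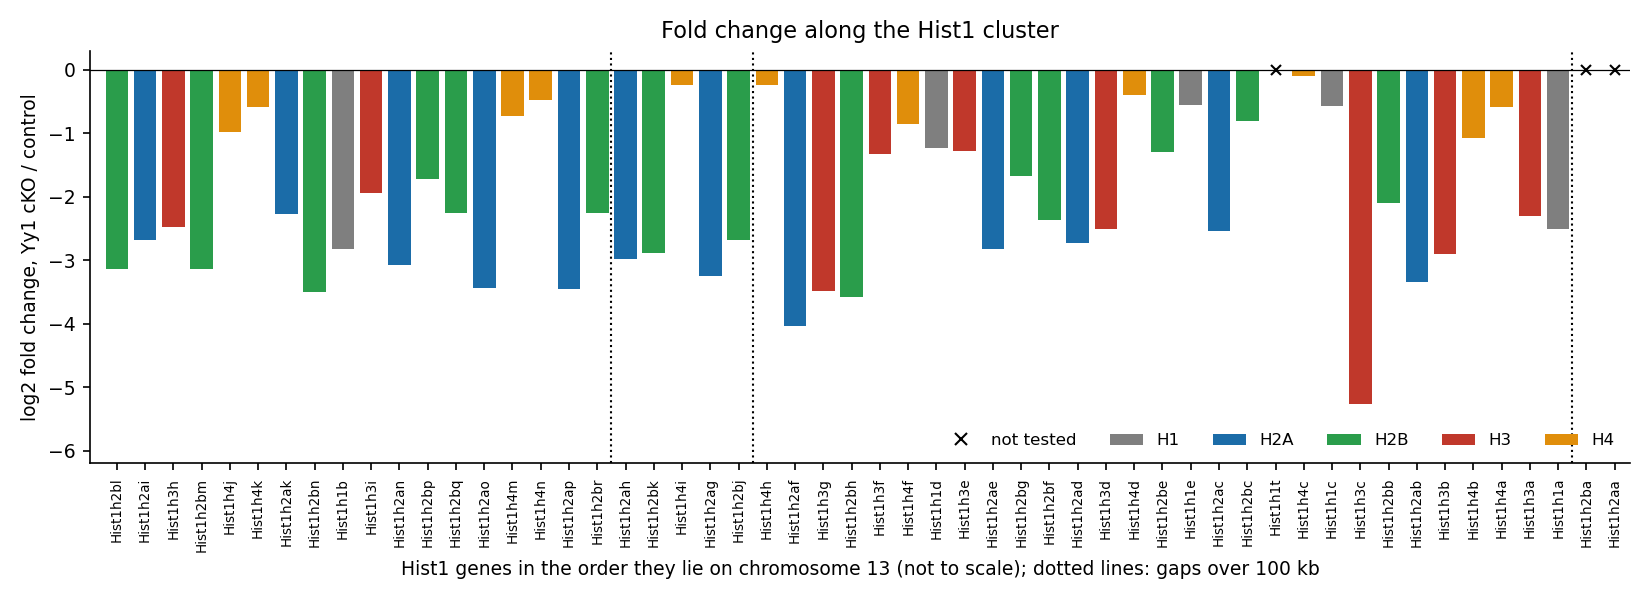
log2 fold change (Yy1 cKO over control) of the Hist1 genes in their order along chromosome 13, coloured by histone type, with dotted lines at gaps of over 100 kb and crosses for genes not tested. Most H4 bars are short beside the H2A, H2B and H3 bars in all 3 blocks with tested genes. In the third block, Hist1h4b (-1.08) and Hist1h4f (-0.86) have longer bars than the H2B gene Hist1h2bc (-0.81).

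Many H2A and H2B genes are arranged head to head, with a single stretch of DNA between their starts. There were 12 such divergent pairs with both genes tested, 11 of an H2A and an H2B gene, with starts 176 to 660 bases apart. In 10 pairs both genes had a log2 fold change under -1. Among them, the pair of Hist1h2bq and Hist1h2ao is nearly a copy of the pair of Hist1h2br and Hist1h2ap, and both are counted. Within pairs the values still differed, by a median of 1.17 and by 0.089 to 2.25. Hist1h2ah and Hist1h2bk were closest (-2.98 and -2.89), and Hist1h2bh and Hist1h3f differed most (-3.58 and -1.33). Hist2h2ac and Hist2h2be, the pair in Hist2, stood together near 0 (-0.17 and 0.05).

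The sequences upstream of 3 members are shown because they include the gene with the largest fall (Hist1h3c), the H2A gene of Hist1 with the most reads (Hist1h2ab) and an H4 gene that shares 1.2% of its 150-base stretches and fell by 0.86 on the log2 scale (Hist1h4f). Each run gives the 160 bases that end before the more upstream of the RefSeq and GENCODE starts, from RefSeq's GRCm38.p6, with capitals for matches on either strand to CCAAT, to the TATA box (TATAAA) or to the octamer ATTTGCAT.
Hist1h3c: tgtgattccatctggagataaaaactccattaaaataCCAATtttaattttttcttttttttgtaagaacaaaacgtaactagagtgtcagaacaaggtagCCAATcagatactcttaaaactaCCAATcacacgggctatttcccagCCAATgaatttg
Hist1h2ab: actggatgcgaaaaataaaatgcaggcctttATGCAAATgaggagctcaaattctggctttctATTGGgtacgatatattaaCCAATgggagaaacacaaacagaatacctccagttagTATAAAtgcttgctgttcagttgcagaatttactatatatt
Hist1h4f: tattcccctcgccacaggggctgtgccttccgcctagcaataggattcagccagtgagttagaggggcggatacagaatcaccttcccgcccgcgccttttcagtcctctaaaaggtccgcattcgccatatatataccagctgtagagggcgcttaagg
They lie at chr13:23745603-23745762 (minus strand), chr13:23750928-23751087 (plus) and chr13:23551669-23551828 (minus). The window of Hist1h3c holds CCAAT at 123, 59, 36 and 12 bases before its end. The window of Hist1h2ab holds CCAAT once on each strand, ATTTGCAT on the other strand and TATAAA on the gene's strand 41 bases before its end, and the window of Hist1h4f holds none of the 3 motifs.

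Over the whole RefSeq promoter window, from 250 bases before to 50 after the start, 62 members could be matched. CCAAT, on either strand, was in 53 of them (85.5%), beside 37.4% of all 32851 promoters. Every matched gene of H1, H2A, H2B and H3 held it, and 3 of 12 H4 genes did. TATAAA was in 35 (56.5%, beside 13.6%), H4 included, with 8 of 12. The octamer ATTTGCAT was in 14 (22.6%, beside 1.7%), of which 7 were H2A and 7 H2B genes. Of the core letters known for YY1 sites, GCCATNTT was in 6 of 62 (9.7%, beside 6.1%) and AANATGGCG in 0 (beside 2.4%). The latter is the former read on the other strand (AANATGGC) with a further G, so they are not separate motifs. The motifs were searched as letters with N for any base, and a match or its absence says nothing about binding.

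Near-identical copies limit how far single genes can be told apart. Of the 67 members, 54 share at least 1 stretch of 150 bases with a transcript of another gene, 47 share at least 10% of their stretches and 24 at least 50%. How reads with several matches were counted is not given in the sources used here. Hist1h2ao and Hist1h2ap share 91% or more of their stretches, and their counts were 465 and 315 in the controls for Hist1h2ao, 471 and 315 for Hist1h2ap, and 41, 43 and 27 in Yy1 cKO for both. Their counts were thus equal in 4 of 5 libraries, with log2 fold changes of -3.44 and -3.45. Hist1h2bq (713 and 534 against 157, 144 and 104 counts) and Hist1h2br (714 and 529 against 157, 143 and 104) differed by at most 5 counts. Each of these pairs is better read as 1 measurement. Hist1h4m and Hist1h4n also share most of their sequence, but their counts differed by up to 438. In Hist2, Hist2h2aa1 had 1 count in all libraries together and Hist2h3c1 had 0, while Hist2h2aa2 shares all of its stretches with Hist2h2aa1. Both of these empty genes are overlapped on their own strand by Gm20634, by 90.3% and 100% of their exon bases, so reads may have been assigned elsewhere.

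Members with little shared sequence were also lower, and pooled over the types their fall was smaller. Among the 18 tested members that share under 10% of their stretches, 12 were called lower, with a median log2 fold change of -0.72 against -2.28 for the 44 others. Their summed level went from 643.3 and 620.7 CPM to 446.7, 488.6 and 398.2 CPM, or 70.3% of control. The composition of the sets differs, since the members with little sharing include 4 of the 5 tested H1 genes and 6 of the 13 H4 genes. Counting each set of near-identical copies once left 57 tested members, of which 45 were called lower.

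The libraries within a group were not alike for these genes. Control 1 exceeded control 2 in 52 of the 62 tested members (83.9%), beside 51.0% of all genes tested. Yy1 cKO 3 was the lowest Yy1 cKO library in 51 (82.3%), beside 38.4% of all genes tested. The summed ratio of Yy1 cKO to control, -0.91 on the log2 scale, was -0.835 without control 1, -0.986 without control 2 and -0.816 without Yy1 cKO 3. Replicate numbers have no order, and these are descriptions of single libraries.

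Annotated transcripts also differ in how far they extend past the stem-loop. Of members with a stem-loop, 19 tested genes end under 100 bases past it, of which 15 were called lower with a median log2 fold change of -2.68. Another 19 are annotated to at least 100 bases past it, as for polyadenylated forms, and 13 of these were called lower with a median of -1.24. Both sets contain members of several types and clusters, and the difference was not tested.

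Other genes of histone supply were set beside the clustered genes. Of all genes tested, 12.6% were called lower and 10.7% higher, and the lists were not tested against these shares. Of 11 tested genes listed as replication-independent histone genes, whose symbols lack the cluster names, 6 were called lower and 0 higher. Their median log2 fold change was -0.50. Expression through the cell cycle was not checked for them, and the list includes Cenpa. H3f3a and H3f3b, which both encode the replacement histone H3.3, were measured at 396 ± 8.4 and 464 ± 29.0 CPM in control (SD, n = 2) and at 179 ± 1.6 and 306 ± 14.1 CPM in Yy1 cKO (SD, n = 3), log2 fold changes of -1.14 and -0.60. H1fx, a linker histone variant, stood at -0.92 ± 0.11 and H2afy2, a macroH2A gene, at -0.82 ± 0.11. Cenpa, the centromeric H3 variant of dividing cells, had the largest fall of the list (-1.86 ± 0.26). H1foo and H2afy3 were too low to be tested.

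Genes for the synthesis and 3′ end formation of histone mRNA kept near control. Of 24, 1 was called lower and 2 higher, beside 12.6% and 10.7% of all genes tested, with a median of 0.06. Slbp, which encodes the stem-loop binding protein, stood at 19.2 ± 1.4 CPM in control and 18.2 ± 1.4 CPM in Yy1 cKO (-0.08 ± 0.11, adjusted p = 0.66). Npat, the coactivator of histone gene transcription in S phase, stood at 0.20 ± 0.064 (adjusted p = 0.0511). Upf1, which acts in histone mRNA decay, and Sympk, a scaffold of the cleavage complex, were called higher by 0.28 and 0.20, and Pou2f2, a relative of the octamer factor Pou2f1, lower at -0.75.

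Histone chaperone and deposition genes were mixed, with 7 of 28 called lower, 0 higher and a median of -0.14. Nasp, a chaperone of soluble H3 and H4, went from 46.3 ± 1.7 to 27.1 ± 1.1 CPM (-0.77 ± 0.077), and Rbbp4, a subunit of several chromatin complexes, stood at -0.24 ± 0.054. Oip5, which serves CENP-A loading at centromeres, stood at -1.85 ± 0.38. The count of 7 was 2 without control 1 and 12 without Yy1 cKO 3.

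DNA replication and S phase genes, with which clustered histone genes are normally expressed, were called lower in 19 of 34 and higher in 2, with a median of -0.86. Mki67 and Top2a, both proliferation markers, stood at -4.60 ± 0.29 and -4.43 ± 0.22, Uhrf1 at -3.82 ± 0.26 and the S phase cyclin gene Ccna2 at -2.63 ± 0.21. Ccne1, the G1/S cyclin gene, was called higher at 0.61 and Pold1, a DNA polymerase subunit, at 0.44. Pcna, the replication clamp, stood at 0.04 ± 0.097. The median of the clustered genes was -2.02. These lists were measured in the same 5 libraries, and the differences between them were not tested.

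**Figure D5:**
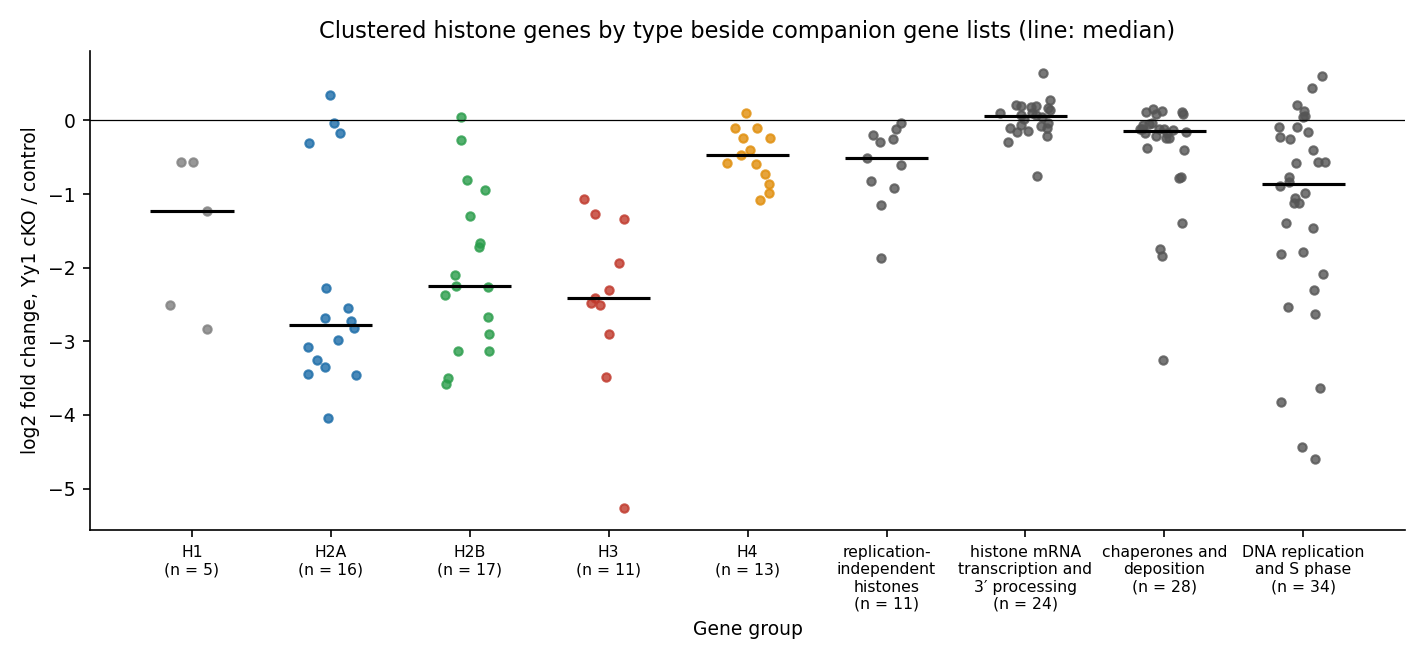
log2 fold change (Yy1 cKO over control) of tested genes, as points, for the 5 types of clustered histone genes and 4 lists of related genes, with a line at each median. H3, H2A and H2B medians lie under -2, those of H4 and of the replication-independent histones near -0.5, and that of the processing genes at 0.06.

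Markers of some of the cells present were lower in Yy1 cKO, as the histone genes were, and those of others were higher. Of 14 markers of granule cell precursors and immature granule cells, 9 were called lower and 0 higher, with a median of -1.88 and summed levels of 2917 to 2919 CPM in control and 2076 to 2278 CPM in Yy1 cKO. Oligodendrocyte precursor markers, of another dividing type, were called lower in 7 of 8 (314.2 to 334.0 against 218.1 to 239.4 CPM), endothelial and pericyte markers in 5 of 8 with 1 higher (309.2 to 343.5 against 207.1 to 241.1 CPM) and meningeal markers in 4 of 7 (221.4 to 296.3 against 115.0 to 163.7 CPM). Mature granule neuron markers were called higher in 7 of 8 (3001 to 3118 against 4034 to 4569 CPM), Purkinje cell markers in 2 of 10, and erythroid markers in 4 of 7 with 1 lower (345.6 to 389.7 against 641.2 to 1013 CPM). Calls were few among markers of astrocytes (2 of 8 lower, 1 higher), oligodendrocytes (1 of 8 lower, 2 higher) and microglia (0 of 8). Of all genes tested, 12.6% were called lower and 10.7% higher, and these short lists were not tested against those shares. The part of these cell types in the histone result was not tested. Forebrain and choroid plexus markers were low but not absent, with sums of 5.32 to 8.98 CPM. Of 4 tested, 1 was called lower (Neurod6, -1.09) and 1 higher (Ttr, 1.54). Of germ cell markers, Prm1, Prm2 and Tnp1 were at 0 in all libraries, as was Hist1h2aa, and Hist1h2ba had 1 and 4 counts in the controls and 0 in Yy1 cKO.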

How the data were processed

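The submitters' processing notes name GRCm38 and, as tools, STAR 2.7.1a, featureCounts, Trimmomatic 0.39, FastQC 0.11.8 and DESeq2 1.26.0. How strand and multi-mapping reads were handled is not given in the sources used here. The authors deposited raw read counts per gene, and a normalized signal that equals, in every library, the deposited count divided by 1 constant (0.969 to 1.07). Gene identifiers were matched to GENCODE M21 (54673 with their version, 567 without, 181 not matched).

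Raw counts of all genes were tested with the edgeR 4.0.16 quasi-likelihood test in R 4.3.3 (TMM scaling, filterByExpr, robust dispersion, no covariate), with Benjamini-Hochberg adjustment over the 20388 genes kept. Standard errors come from the F statistic. Sums use all members, near-identical copies included, and have no test. Between libraries of a group, chi-square per gene was 3.51 to 16.7, and between groups 34.1 to 41.5, so that no pair looked like repeat copies of 1 library.

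Alternatives were other scalings and filters, DESeq2 1.42.0, limma-voom (limma 3.58.1), edgeR without robust dispersion, the replicate number as a block, a fit with haemoglobin, mitochondrial and sex-linked genes left out, an adjusted p of 0.01, and leaving out each library. Yy1 cKO 3 has no control of its number, so the block compares the groups without it, nearly as leaving it out does. The counts over members with under 10% shared sequence and over copies counted once were added after seeing the data. The members, gene lists and tests were chosen with earlier results of these data known.

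Values in each library are given for members called with a mean of at least 5 CPM and for the extremes of each type. From each list of related genes, up to 4 genes with the smallest p and those called against the list's majority are named, and Slbp, Cenpa and Pcna were added after their values were seen. Transcripts came from GENCODE M21 and promoters from RefSeq (GRCm38.p6, 62 of 67 members matched by gene ID). Shared sequence was measured as exact matches of 150 bases between transcripts of different genes, on either strand.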

Additional observations from a re-analysis of the deposited data

How the results depend on the processing

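Depth limits the low members: 7 of the 49 called had means under 5 CPM, and single libraries there had as few as 3 counts. Over the other scalings, filters, tests, thresholds and library sets, 44 to 53 members were called lower and no called member changed sign. All 11 tested H3 genes were called under each of them. The lowest and highest counts on leaving out 1 library were 44 and 52, and those of members called higher 0 and 1. Hist2h2ab was the 1 member called higher, under the replicate block (0.47) and without Yy1 cKO 3 (0.47). These are nearly the same fit, since the block compares the groups without Yy1 cKO 3. Among members sharing under 10% of windows 12 of 18 were called lower, and their summed log2 ratio was -0.508 beside -0.912 for all; the cause was not tested. Over all genes, the replicate block called 3575 lower and 3486 higher, leaving out control 1 gave 1267 and 920, control 2 1300 and 887, Yy1 cKO 1 1877 and 1491, and an adjusted p under 0.01 gave 1453 and 1095. Whether the replicate numbers pair libraries cannot be told here. Same-numbered libraries correlated at 0.037 and 0.013 in their deviations from the group means. With 2 controls those deviations mirror each other, and Yy1 cKO 3 has no partner. The block moved the members' calls by 5, all gained.

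The Hist3 count of 1 (Hist3h2ba) was 0 with DESeq2 size factors, upper quartile scaling, DESeq2, limma-voom, no robust dispersion and an adjusted p under 0.01, and 0 to 1 on leaving out 1 library. Processing genes called higher, 2, were 0 by library size alone, 1 with DESeq2, 1 with limma-voom, 4 under the block, 0 at an adjusted p under 0.01 and 0 to 3 on leaving out 1 library. Chaperone genes called lower, 7, were 12 by library size, 4 with DESeq2, 12 under the block, 3 at 0.01 and 2 to 12 on leaving out 1 library. Those called higher, 0, were 1 by upper quartile, 2 under the block and 0 to 2 on leaving out 1 library. Replication genes called higher, 2, were 1 by library size, 1 with DESeq2, 0 at 0.01 and 0 to 1 on leaving out 1 library. Calls were lost for Hist1h2be without control 1, control 2 or Yy1 cKO 1 (adjusted p = 0.0959, 0.0706 and 0.0623), and without control 1 for Hist1h2bb (0.0633) and Hist2h2bb (0.0691). A fit with a single control takes the spread from Yy1 cKO.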
